A study of Homo sapiens and Mus musculus with 20 samples.

Results

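The enriched regions labelled H3K4me1 were compared between ARP1 cells with wild-type KDM6A (WT) and ARP1 cells with KDM6A knocked out (KO). They were taken from the lists of these 2 libraries, out of 20 in the series, on chromosomes 1 to 22 and X. Chromosome 2 at 15 to 20 Mb and chromosome 11 at 109000000 to 112000000 bp were left out, because KO regions were packed there. Summits that shared a region's coordinates were merged. This gave 95534 WT regions and 75781 KO regions. ARP1 is an established human multiple myeloma cell line, a cancer of plasma cells. The genotype labels read wild type and knock out, and the KO library's title also carries E4, a name the labels do not explain, and whether the KO line is a clone is not stated in the labels. The labels name no treatment or time point. Lists for H3K27ac, H3K27me3, an antibody to KDM6A and input DNA, each in WT and KO ARP1, were used for comparison. So were lists for an antibody to the HA epitope, in an ARP1 line titled HA-tagged KDM6A and in ARP1 cells labelled WT. With 1 library a group there is no replicate check and no test, and the 95% intervals cover counting error only.

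H3K4me1 is monomethylation of lysine 4 of histone H3. It is written mainly by the methyltransferases KMT2C and KMT2D (MLL3 and MLL4), which work in a COMPASS complex that holds KDM6A together with NCOA6, PAXIP1, PAGR1 and the shared subunits WDR5, RBBP5, ASH2L and DPY30. The mark is known from enhancers and from the flanks of active promoters, where it is low at the start itself because nucleosomes there carry trimethylation. H3K27ac, an acetylation placed by EP300 and CREBBP, marks enhancers and promoters in use and is high on both sides of the start.

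Promoter sequences of the highest ranked genes with a region in 1 list only are shown first, because promoters of genes with a WT region alone and of genes with a KO region alone differed in CpG content. Each is the 250 bases before the start, 5′ to 3′ on the gene's strand, from RefSeq (GRCh38.p14), with CpG dinucleotides in capitals, and each is overlapped by its gene's own listed region. NFYA (chr6:41072724-41072973, plus strand), NRDC (chr1:51878728-51878977, minus strand) and FMC1 (chr7:139340222-139340471, plus strand) had a WT region and no KO region.
NFYA: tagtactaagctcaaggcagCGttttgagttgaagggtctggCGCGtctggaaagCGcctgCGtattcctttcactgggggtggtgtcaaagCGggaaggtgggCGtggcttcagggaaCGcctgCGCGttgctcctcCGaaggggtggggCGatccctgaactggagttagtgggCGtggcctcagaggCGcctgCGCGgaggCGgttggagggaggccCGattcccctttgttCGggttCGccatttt
NRDC: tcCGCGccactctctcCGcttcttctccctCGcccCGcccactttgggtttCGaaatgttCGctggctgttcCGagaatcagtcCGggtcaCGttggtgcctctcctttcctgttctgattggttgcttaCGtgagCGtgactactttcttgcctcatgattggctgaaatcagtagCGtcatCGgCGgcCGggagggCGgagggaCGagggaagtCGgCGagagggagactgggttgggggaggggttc
FMC1: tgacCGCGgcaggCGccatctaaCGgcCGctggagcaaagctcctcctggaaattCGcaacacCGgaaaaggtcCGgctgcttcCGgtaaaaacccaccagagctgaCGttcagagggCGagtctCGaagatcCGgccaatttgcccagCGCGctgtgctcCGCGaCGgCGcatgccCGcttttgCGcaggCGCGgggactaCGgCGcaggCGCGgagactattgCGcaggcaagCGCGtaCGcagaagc

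CORIN (chr4:47838068-47838317, minus strand) and LOC105378947 (chr1:611298-611547, minus strand) had a KO region and no WT region.
CORIN: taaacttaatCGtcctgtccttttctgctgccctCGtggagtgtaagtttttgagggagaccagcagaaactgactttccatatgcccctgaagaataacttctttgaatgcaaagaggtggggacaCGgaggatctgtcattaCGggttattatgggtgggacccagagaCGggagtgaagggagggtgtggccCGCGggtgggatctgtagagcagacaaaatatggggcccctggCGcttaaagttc
LOC105378947: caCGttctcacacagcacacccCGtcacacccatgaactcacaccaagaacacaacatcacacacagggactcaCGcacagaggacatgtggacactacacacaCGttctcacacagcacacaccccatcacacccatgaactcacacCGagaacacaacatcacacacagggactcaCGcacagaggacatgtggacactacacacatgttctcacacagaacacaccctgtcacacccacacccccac

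The 3 promoters with a WT region held 20, 20 and 31 CpG in these bases, and the 2 with a KO region held 8 and 6. LOC105378947 consists largely of a repeated unit, at which reads from other copies of the repeat can be placed. Over the promoters with a known start, counted in 300 bases (250 before and 50 after the start), the median was 26 CpG for the 5697 genes marked in WT only. It was 27 for the 4385 genes marked in both, 9 for the 705 genes marked in KO only, and 6 for the 4999 genes marked in neither, against 22 for all 15786. The GC box GGGCGG, searched on both strands, was found in 69.3% of promoters marked in WT only, 73.8% of those marked in both, 43.5% of those marked in KO only, 34.7% of those marked in neither and 58.5% of all. TATAAA, also on both strands, was found in 5.55%, 5.11%, 11.5%, 18.0% and 9.64% of the same groups. In CpG count and GC box share, the promoters marked in KO only were closer to those marked in neither list than to those marked in WT only, and in TATAAA they lay between them. A match is a string of letters and no evidence of binding.

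The lists were first checked against the antibody label. The library labelled WT held 34023091 fragments of 101 bp on average and the library labelled KO 25570686 of 121 bp, after the authors' filtering. WT regions covered 71.7 Mb and KO regions 35.0 Mb. The authors' fold enrichment, the pileup at a summit over the mean of the same library, had a 90th percentile of 26.3 in WT and 6.33 in KO. Of WT regions 44.1% reached a −log10 q-value of 5, against 19.1% of KO regions. The protocol in the labels names antibodies to H3K27ac, H3K27me3 and KDM6A, so H3K4me1 is known here from the antibody label alone.

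Among regions near transcription starts, summits of the library labelled WT lay at the start and those of the library labelled KO beside it. Most regions were not near a start. Outside chromosome 8, 76.3% of WT and 77.6% of KO regions had their highest summit over 10 kb from a known start. Within 250 bp lay 5.42% and 0.471%. The highest summit of each region was counted in bins of 200 bp around 15786 starts. In WT the fullest bin was 0 to 200 bp downstream of the start, with 3280 summits. Bins within 400 bp of the start held 6.85 times as many WT summits as bins 800 to 1600 bp away. In KO the fullest bin was 1200 to 1400 bp downstream, with 534 summits, and the same ratio was 0.415. For H3K27ac, with 1 summit a region, it was 11.04 in WT and 9.39 in KO. Without the densely filled bins described below, the ratios were 7.36 for the library labelled WT and 0.412 for KO. With every summit counted in place of the highest, the ratio was 2.55 for the library labelled WT, fullest again at 0 to 200 bp, and 0.444 for KO. Bins 800 to 1600 bp away then held 3.95 times as many WT summits as bins from 3000 bp outward, against 1.38 for WT H3K27ac. These 2 counts are unlike, because the H3K27ac list has 1 summit a region. With the highest summit of each region alone, the WT value was 1.56.

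**Figure D1:**
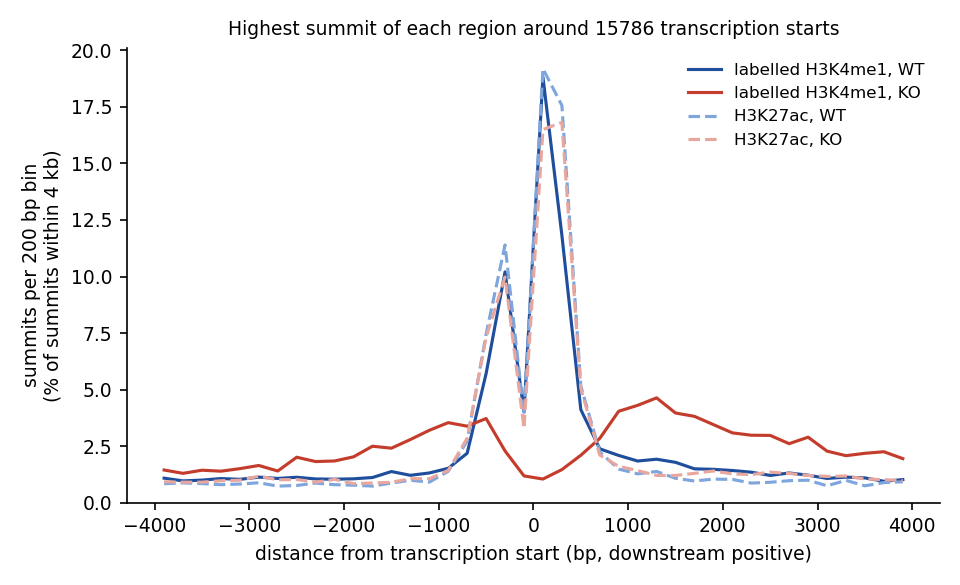
The plot shows the highest summit of each region by distance from the transcription start (x axis, bp) as a percentage of the summits within 4 kb (y axis), for the 2 lists labelled H3K4me1 and the 2 H3K27ac lists. The line for the library labelled H3K4me1 WT runs with both H3K27ac lines, with its fullest bin at 0 to 200 bp, and the line labelled KO dips at the start and is fullest at 1200 to 1400 bp.

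The library labelled H3K4me1 WT also followed H3K27ac along the genome. Of the 10000 highest ranked WT H3K27ac regions 99.9% overlapped it, and 38.6% overlapped the KO list. Among 11803 genes with a WT H3K27ac region near the start, 99.1% held a region of the WT list. Among 12146 genes with a KO H3K27ac region, 44.7% held one of the KO list. The length covered in each gene and 10 kb either side had a Spearman correlation of 0.971 between the library labelled H3K4me1 WT and WT H3K27ac across 19936 genes. It was 0.960 between WT and KO H3K27ac, 0.470 between KO H3K4me1 and KO H3K27ac, and 0.473 between the lists labelled H3K4me1. Genes differ in length and share each library, so these values are descriptions. Near starts, the position of the highest WT summits therefore went against the textbook profile of the label, and the KO profile had its shape. What set the libraries apart was not tested, and genotype, antibody signal and library cannot be told apart with 1 library each. Below, WT list and KO list mean the lists of the libraries labelled H3K4me1 WT and H3K4me1 KO, and lost, kept and gained describe presence in a list, not a loss or gain of methylation.

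KO regions were also crowded into parts of the genome. Of 2910 bins of 1 Mb with a region in either list, 306 held over 10 times the median of 6 KO regions. These dense bins, defined from KO counts alone after the data were seen, held 63.1% of KO regions and 32.3% of WT regions. The KO list also decides which WT regions are lost below. Leaving out dense bins therefore favours a higher lost share and is no independent check of it. The fullest held 780 KO and 123 WT regions. The longest run of adjacent dense bins, 20 bins on chromosome 1 from 143 to 163 Mb, held 9.84% of KO regions and 2.73% of WT regions, with 2.43% of WT and 2.71% of KO H3K27ac regions. In the opposite direction, chromosome X held 2017 WT and 313 KO regions, which is 2.11% and 0.413% of the lists, against 2.47% and 2.32% of WT and KO H3K27ac regions. Chromosome 6 held 4391 WT and 1099 KO regions. The part that this crowding has in the results was not tested, so values outside dense bins are given where they differ.

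**Figure D2:**
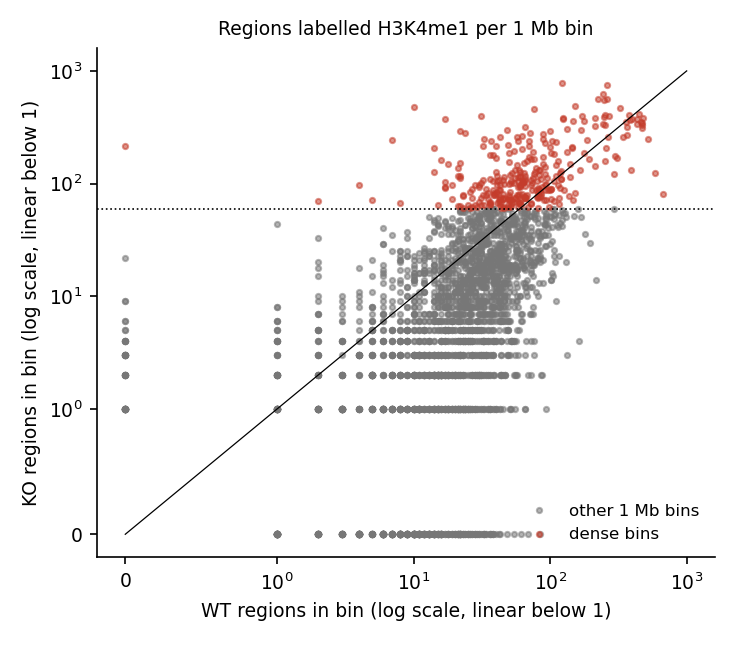
The plot shows the number of KO regions (y axis) against WT regions (x axis) in each bin of 1 Mb, on log scales that are linear below 1, with the diagonal marking equal counts and the dotted line 10 times the KO median of 6. The 306 dense bins in red lie above the dotted line by definition and reach 780 KO regions.

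Most WT regions had no counterpart in the KO list. Of 95534 WT regions 72086 (75.5%, exact Clopper-Pearson interval 75.2 to 75.7) overlapped no KO region by even 1 bp and are called lost, and 23448 were kept. Of 75781 KO regions 51064 (67.4%, 67.0 to 67.7) overlapped no WT region and are called gained, and 24717 were kept. In base pairs, 10.7 Mb were covered in both lists, which is 15.0% of the WT and 30.6% of the KO length. Outside dense bins 88.0% of 64661 WT regions were lost and 66.8% of 27935 KO regions were gained. The choice of these bins by KO counts favours the higher lost share. Over chromosomes, the lost share ran from 54.8% on chromosome 19 to 94.2% on chromosome X, with 91.3% on chromosome 6.

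Strong regions were lost less often than weak ones, but most of them were lost. In the decile of highest ranked WT regions (by −log10 q, then fold) 61.6% were lost, and in the lowest decile 83.0%. Outside dense bins these shares were 71.8% and 94.5%. The gained share was 39.7% in the top KO decile and 78.3% in the lowest. Ranks were not carried from one list to the other: over the 23448 kept WT regions, the rank in WT and that of the best overlapping KO region had a Spearman correlation of −0.15, and of −0.07 over the 7785 outside dense bins.

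**Figure D3:**
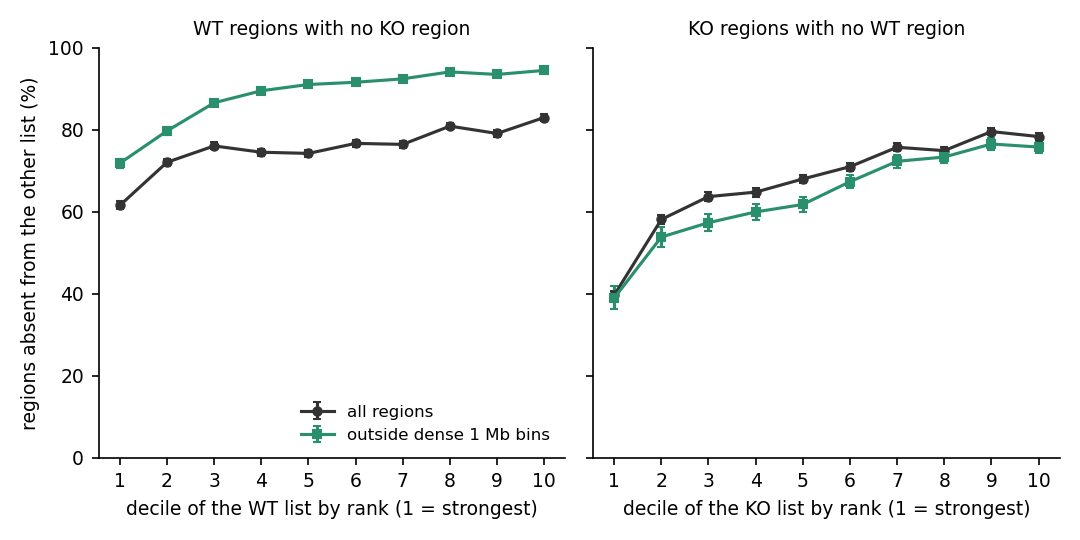
The plots show the share of regions absent from the other list (y axis, percent, bars are exact 95% intervals of counting) by decile of rank (x axis, 1 is strongest) for WT regions, left, and KO regions, right. Over all regions the share runs from 61.6% to 83.0% for WT and from 39.7% to 78.3% for KO. Outside dense bins the WT share is higher in every decile, which the choice of these bins by KO counts favours.

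Lost regions were shorter than kept ones, and whether they had fewer summits depended on the setting. The median length was 263 bp for lost and 535 bp for kept WT regions, and 195 bp for gained and 292 bp for kept KO regions. Several summits, the separate maxima that the peak caller split from 1 region, were found in 29.6% of lost and 38.5% of kept WT regions, a difference of −8.92 percentage points (−9.63 to −8.22). Gained regions had several summits in 5.16% of cases and kept KO regions in 16.9%. With −log10 q of at least 5 in both lists the WT difference turned to 9.98, and to 19.95 when 50% of a region had to be covered. Outside dense bins it was −27.4. No direction can be given for it. Longer regions have more chance to meet a region of the other list, and that part was not tested.

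Lost regions lay closer to genes than kept regions over the whole genome, and outside dense bins this depended on the strength of the regions. Of lost regions 50.9% had their highest summit in the body of a protein-coding gene, 11.5% within 10 kb of one, 10.97% at 10 to 50 kb and 26.7% farther. For kept WT regions these shares were 36.8%, 9.71%, 8.77% and 44.8%. The share over 10 kb from any gene was thus 37.6% for lost and 53.5% for kept regions, −15.9 points apart (−16.6 to −15.2). Outside dense bins it was 34.0% and 33.3%, a difference of 0.63 (−0.49 to 1.75), and with −log10 q of at least 5 as well it was −14.0 (−17.01 to −11.02). Of gained regions 46.3% lay in a gene body and 43.7% over 10 kb away, and outside dense bins 55.2% and 34.1%. Distances to starts were not measured on chromosome 8, which every share or count of regions near a start leaves out. Elsewhere, 5.69% of 68675 lost and 4.60% of 22488 kept WT regions had their summit within 250 bp of a start. For gained and kept KO regions these shares were 0.383% and 0.657%.

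Most lost regions overlapped H3K27ac. Of lost regions 58.6% overlapped WT H3K27ac and 55.8% overlapped KO H3K27ac. Of those on WT H3K27ac, 79.7% (79.3 to 80.1) were on KO H3K27ac as well, against 85.3% of 14911 such kept regions. Outside dense bins these shares were 80.2% and 91.0%. In the top WT decile 5881 of 5882 lost regions were on WT and 5878 on KO H3K27ac. So were 3663 and 3658 of 3672 kept regions, so the top decile does not set lost regions apart. Within 2.5 kb of a start 80.2% of 9958 lost regions were on WT and 84.3% on KO H3K27ac, against 87.8% and 90.9% of kept ones. Over 10 kb from a gene and outside dense bins, 56.7% of 19343 lost regions were on WT and 51.1% on KO H3K27ac. For kept regions there the shares were 68.6% and 67.0%.

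Kept regions held H3K27ac in 63.6% of cases in WT and in KO. Lost minus kept, the share on WT H3K27ac differed by −4.94 points (−5.66 to −4.23). Its sign depended on the setting: it was 5.72 with −log10 q of at least 5, 12.9 when 50% of a region had to be covered, 1.86 as a mean within deciles of rank, and −13.9 outside dense bins. No direction can be given for it.

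Gained regions mostly lacked H3K27ac. Of 51064 gained regions 6.03% overlapped WT and 8.65% KO H3K27ac, and 88.5% overlapped neither. Kept KO regions were on KO H3K27ac in 70.3% of cases, so the difference, gained minus kept, was −61.7 points (−62.3 to −61.0). It ranged from −70.2 to −51.4 over the alternatives run. Near starts, within 2.5 kb, 10.9% of 3676 gained regions were on WT and 22.3% on KO H3K27ac. A region absent from the WT list is also one absent from a list that tracked H3K27ac, so the kept and gained classes were not chosen independently of H3K27ac.

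**Figure D4:**
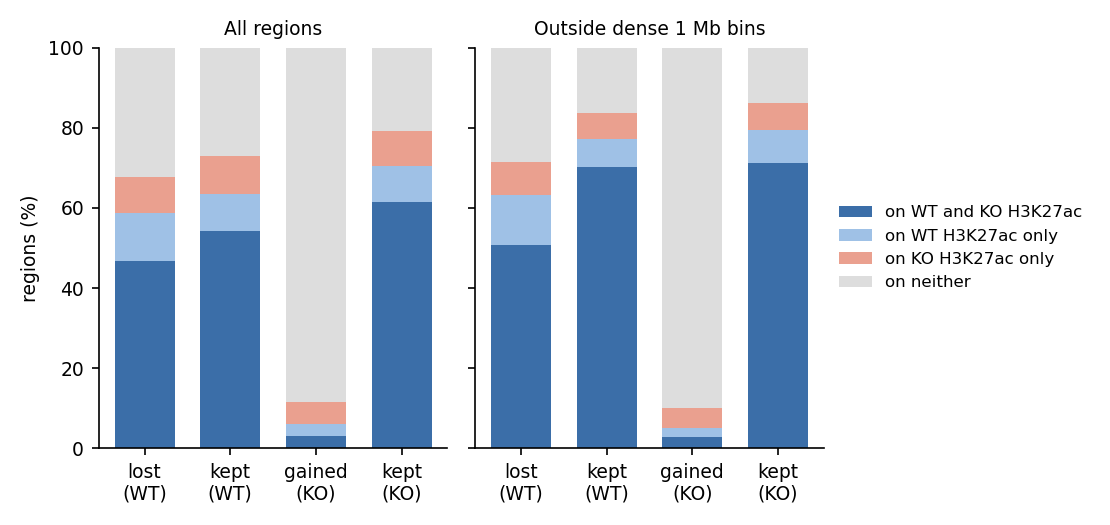
Stacked bars give the share of regions (y axis, percent) that overlap H3K27ac regions of both genotypes, WT alone, KO alone or neither, for lost and kept regions in WT coordinates and gained and kept regions in KO coordinates, over all regions (left) and outside dense bins (right). Of gained regions 88.5% are on neither list, against 32.4% of lost regions.

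Kept regions coincided more often with regions from control precipitations than lost ones. The KDM6A antibody in KO cells, which lack the labelled target, gave a region on 38.4% of kept and 2.72% of lost WT regions. The HA antibody in cells labelled WT, with no tag in the title, gave one on 48.7% and 10.6%. Input DNA of KO cells gave one on 6.64% and 0.695%. Outside dense bins these pairs were 17.1% and 1.31%, 19.4% and 4.68%, and 3.88% and 0.373%. H3K27me3, the Polycomb mark that KDM6A removes, showed the same split in both genotypes. Its regions in WT cells lay on 24.8% of kept and 5.98% of lost regions, and those in KO cells on 21.7% and 3.46%. Outside dense bins these shares were 24.1% and 5.32% for WT cells, and 17.1% and 2.60% for KO cells. KDM6A binding, taken as a KDM6A region in WT with none in KO, lay on 17372 WT regions, of which 70.3% were lost, against 76.6% of the other WT regions. Outside dense bins the shares were 81.5% and 89.1%. With the HA-tagged line in place of the antibody to KDM6A, the shares outside dense bins were 81.7% and 89.9%, but over all regions the direction was opposite, with 76.3% of 18541 HA-bound regions and 75.3% of the others lost. Bound regions ranked higher outside dense bins, with median ranks of 22325 against 48816 for KDM6A and 22571 against 52462 for HA. As means over deciles of rank, the shares there were 85.4% and 89.0% for KDM6A, and 86.9% and 89.4% for HA. Over all regions these means were 69.3% and 76.3% for KDM6A, and 80.1% and 74.6% for HA.

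A gene counted as marked if a region came within 2.5 kb of its start, or of either gene end where the strand is unknown (4150 of 19936 genes). The WT list marked 12493 genes and the KO list 6599. Of the marked genes 6934 (55.5%, 54.6 to 56.4) had no KO region, and of 7443 genes unmarked in WT 1040 (14.0%, 13.2 to 14.8) had one. Of 6433 lost genes with WT H3K27ac, 98.3% held a KO H3K27ac region too, against 99.1% of 5268 kept genes. Presence of a region does not give its extent: at CD38, a lost gene, H3K27ac covered 5615 bp in WT and 2064 in KO. KO H3K27ac was listed at 89 of the 1040 gained genes (8.56%). The same share over all 7443 genes unmarked in WT was not counted, so no contrast is drawn. Unmarked genes seldom held WT H3K27ac, since 99.1% of 11803 genes with it were marked in WT. Dense bins held 52.9% of gained genes, 9.17% of lost genes and 22.9% of all genes, an order that their choice by KO counts favours. Outside these bins, 67.9% of marked genes were lost.

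The length covered per gene gave a finer measure. Over 14414 genes with at least 500 bp in the WT list, within the gene and 10 kb either side, the KO length was a median of 0.0980 times the WT length. It was under 0.5 times in 12390 genes (86.0%) and over 2 times in 269 (1.87%). Outside dense bins the median over 10757 genes was 0.0503. For H3K27ac the median over 13936 genes was 1.10, with 3.49% of genes under 0.5 and 3.26% over 2. A library with fewer or narrower regions gives shorter lengths throughout.

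The genes with the strongest lost regions had H3K27ac in both genotypes, which does not set them apart. Of 9554 regions in the top WT decile, kept ones included, 99.8% were on both WT and KO H3K27ac. TRIB1, a pseudokinase that brings substrates to the ubiquitin ligase COP1, had the top one, on chromosome 8 at 125428947 to 125436760 over the gene body, at rank 72 of 95534 and fold 130. Around TRIB1 the WT list covered 10786 bp and the KO list 0, with 11953 and 14653 bp of H3K27ac. NFYA, the DNA-contacting subunit of the CCAAT-binding factor NF-Y, had a region of 3971 bp over its start at fold 125, with 4242 bp in WT and 0 in KO around the gene. NRDC, a metalloendopeptidase, had 10250 and 0 bp, and CD164, a sialomucin of blood progenitors, 7602 and 0 bp. DDIT4, a stress-induced inhibitor of mTORC1 signalling, had 7878 and 0 bp. BRD2, a bromodomain reader of acetylated histones, had 8137 and 0 bp. FMC1, LUC7L2 and their readthrough FMC1-LUC7L2 shared 1 region of 2954 bp at rank 159. FRMD8, the remaining gene, was named for a region of 16072 bp beyond its end, on chromosome 11 at 65415636 to 65431707, which overlaps the long noncoding RNA gene NEAT1. Each of these regions overlapped WT and KO H3K27ac.

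The strongest distal lost regions, over 10 kb from a protein-coding gene, included other known loci. That at rank 111, on chromosome 14 at 105858411 to 105862081, lay in the immunoglobulin heavy chain locus between IGHM and IGHJ6, the interval known to hold the intronic heavy chain enhancer. That at rank 261, on chromosome 11 at 65495824 to 65509104, overlapped MALAT1, an abundant nuclear noncoding RNA. The others, nearest to TFRC, EBLN1 and LOC124904409, ranked 143, 147 and 149. All 5 overlapped H3K27ac of both genotypes, as did 99.8% of all regions in the top WT decile. Those nearest to TMEM121 (the IGH locus), TFRC and LOC124904409 lay in dense bins.

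The strongest gained regions near genes stood lower in rank and fold in the KO list than the lost ones in the WT list. The libraries differ in depth and in fold throughout, so these values describe each list. CORIN, a serine protease that processes natriuretic peptide precursors, had the top one, of 5248 bp over its start at rank 666 of 75781 and fold 17.2. FCRL4, an Fc receptor-like protein of B cells, followed at fold 9.50 after LOC105378947 at 13.6. URAD, CDH4 (a cadherin), RUNDC3B, EIF2S3B, GAGE10, LOC124905938 and LOC124903130 had folds of 8.14 to 9.50. GAGE10 is 1 of a family of near-identical genes and EIF2S3B is a close copy of EIF2S3, so reads there may belong to other copies. Of these 10 regions 3 overlapped WT H3K27ac and 2 of those KO H3K27ac, and 4 lay in dense bins. The 5 strongest distal gained regions, nearest to SNRPN, ASAP2, ID2, TUBA3C and SALL3, had folds of 29.9 to 41.2 and overlapped no H3K27ac region. Those nearest to ASAP2, ID2 and TUBA3C were in dense bins.

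The largest differences in covered length had different settings. The largest KO minus WT deficits were at NSMCE2, a SUMO ligase of the SMC5/6 complex (82740 bp in WT, 3831 in KO), GREB1 (74005 and 12618), RANBP2, a nuclear pore protein (61935 and 1904), CCDC88C (66203 and 8027) and IQSEC1 (62068 and 4043). H3K27ac around NSMCE2 covered 101328 and 93893 bp. The largest excesses were at ASAP2 (37346 bp in WT, 206936 in KO), MBOAT2 (188 and 148653), the tyrosine kinase gene TEC (7946 and 151092), KIDINS220 (759 and 117635) and CORIN (0 and 110376). All 5 excesses lay in dense bins, on chromosomes 2 and 4, and CORIN had 0 bp of H3K27ac in both genotypes. Of the 5 deficits, GREB1 lay in a dense bin.

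KDM6A itself, on chromosome X at 44873188 to 45112779, had a WT region of 1023 bp at 44871936 to 44872958, ahead of its start, at rank 9918 and fold 25.5. No KO region was listed there, and around the gene the WT list covered 7036 bp and the KO list 212. H3K27ac covered 9699 bp in WT and 11745 in KO. Such lists cannot tell whether the gene is disrupted. On chromosome X as a whole 94.2% of WT regions were lost. Whether KDM6A differs from other genes of its chromosome was not tested.

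All 10 genes of the MLL3/4 COMPASS complex were marked in WT, and 4 had no KO region, against 55.5% of all marked genes. These were KDM6A, KMT2C, ASH2L and the coactivator NCOA6. Covered length was 4528 bp in WT and 3029 in KO at KMT2C, and 2011 and 0 bp at ASH2L. KMT2D kept a KO region of 129 bp, at rank 49501, where the WT region had 2936 bp and rank 4410. The median KO over WT length was 0.102 for the 10 genes, close to the 0.0980 of all genes, and 1.11 for H3K27ac. In the list of other H3K4 methyltransferases and demethylases with partner subunits 6 of 12 were lost. These were KDM1A, KDM5A, KDM5C, KDM1B and the partner subunits MEN1 and RCOR1. Of the acetylation and bromodomain list 7 of 14 were lost, among them the acetyltransferases EP300 (3749 and 122 bp) and CREBBP (4080 and 417 bp). Of 17 Polycomb genes 10 were lost, among them EZH2 (4161 and 289 bp), EED (2113 and 0 bp) and BMI1 (30180 and 442 bp). All marked genes of these 4 lists held H3K27ac in both genotypes. Among all 12493 marked genes 93.7% held WT H3K27ac. Of those, 98.3% of lost and 99.1% of kept genes held KO H3K27ac too.

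Plasma cell genes, the identity genes of the line, were marked in 18 of 19 cases in the WT list, against 62.7% of all genes, and 7 of the 18 were lost, against 55.5% of all marked genes. PRDM1, the repressor that drives plasma cell differentiation, had 36837 bp in WT and 667 in KO, with 38547 and 37578 bp of H3K27ac. XBP1, the secretory pathway regulator, had 16690 and 0 bp, and JCHAIN, which joins IgM and IgA subunits, 22436 and 0 bp. TNFRSF17 (BCMA) had 12374 and 156 bp, and IKZF1, CD38 and PIM2 were the other lost genes. IRF4, which myeloma cells depend on, kept a KO region of 289 bp in place of 12327 bp, and its covered length was 15940 and 3535 bp. SDC1 (CD138) stood on the other side, with 26816 bp in WT and 44679 in KO. Its KO region ran over 237091 bp with 768 summits at rank 31 and adjoins the left-out block of chromosome 2. FCRL5 was the 1 gained gene, in a dense bin. POU2AF1 lies in the left-out block of chromosome 11.

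Of 20 marked MHC class I genes 7 were lost, against 55.5% of all marked genes, and their median KO over WT length was 0.122, against 0.0980 for all genes. The lost genes included the light chain B2M (8896 and 256 bp), the peptide transporter TAP1 (11885 and 1396 bp) and the chaperone CANX (6733 and 197 bp). The heavy chain gene HLA-B stayed marked, with 2048 bp in WT and 271 in KO, and so did HLA-C, with 2049 and 370 bp. These genes are near-identical in parts, so their reads may be shared. Of 7 marked class II genes 2 were lost, RFXAP and HLA-DMA, and the median length ratio was 0.230. CD74, the invariant chain of class II, had 511 bp in WT and 518 in KO. RFX5, a subunit of the same regulatory factor, had 2413 bp in WT and 7548 in KO, in a dense bin.

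Signalling and survival lists are read against the 55.5% lost among all marked genes. Lost were 9 of 18 interferon-stimulated genes, 11 of 20 immune ligand and adhesion genes, 8 of 19 IL6 and cytokine signalling genes, 6 of 13 BCL2 family genes and 5 of 9 B cell genes. OAS1 had 5514 bp in WT and 0 in KO and OAS2, another sensor of double-stranded RNA, 3930 and 149. The adhesion molecule ITGA4 had 12072 and 1361 bp, and CD58, a ligand of T cell CD2, 15989 and 0 bp. The IL6 receptor subunit IL6ST had 6946 and 486 bp, and STAT3, its transcription factor, 1616 and 0. BCL2, the survival factor, had 32119 and 7621 bp. MCL1, on which myeloma cells also depend, had 15494 bp in WT and 22336 in KO, and it lies in the run of dense bins on chromosome 1. BACH2, a B cell repressor of plasma cell fate, had 20634 and 596 bp.

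Lists of other cell types and of ubiquitous genes served as a comparison. Of 20 housekeeping genes 11 were lost, against 55.5% of all marked genes, among them GAPDH (6751 and 142 bp) and EIF4A2 (3900 and 0 bp), and their median KO over WT length was 0.0696. Few members of the lists for other lineages were marked in WT: 5 of 14 T and NK markers, 4 of 14 myeloid and erythroid markers, 4 of 14 epithelial and stromal markers and 7 of 30 HOX and developmental regulators, against 62.7% of all genes. Of these 3, 3, 1 and 4 were lost, numbers too small to set against the 55.5% of all marked genes. GATA3 had 11811 and 248 bp, KLF1 3981 and 934, PECAM1 6207 and 2555, and HOXB7 7043 and 127. No list had a median KO over WT length above 1. Medians ran from 0.0297 for the HOX and developmental list to 0.703 for the 6 epithelial and stromal genes measured, against 0.973 to 1.48 for H3K27ac in the same lists.

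**Figure D5:**
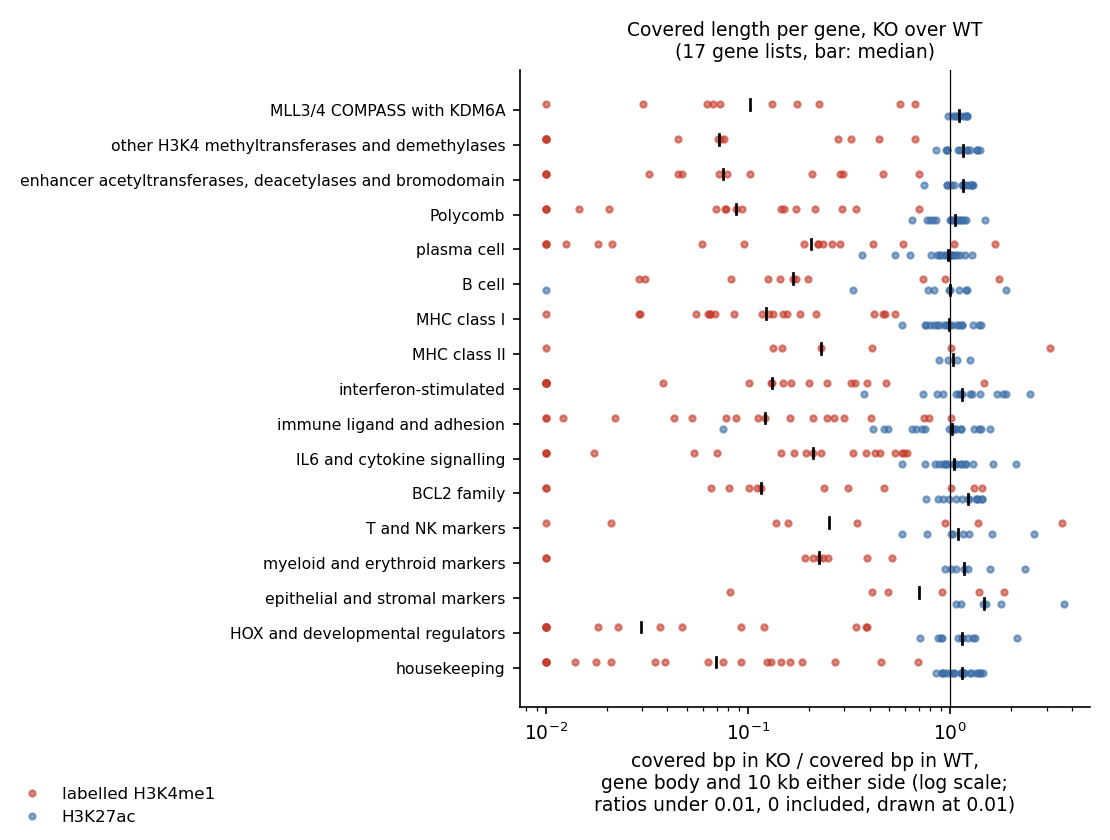
Each point is a gene of a list (y axis), placed by its KO over WT covered length (x axis, log scale, with ratios under 0.01 and 0 drawn at 0.01) for the libraries labelled H3K4me1 (red) and H3K27ac (blue), with a bar at the list's median. The red medians lie between 0.0297 and 0.703 and the blue medians between 0.973 and 1.48.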

How the data were processed

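Lists of enriched regions from 1 library per group were used. Per the labels' protocols, chromatin was fixed, sonicated, precipitated and tagmented on beads. Per the submitters' processing notes, Bowtie2, GRCh38 and MACS2 2.1.2 were used. Per the file headers, MACS 2.1.1.20160309 with summit splitting made the lists labelled H3K4me1 and MACS 2.2.7.1 the H3K27ac lists, without a control, at a q-value of 0.05. Each deposited line gives the authors' pileup signal, fold enrichment (ratio), −log10 p-value and −log10 q-value. These were used to rank or filter within a list. Folds, ranks and q-values were also set side by side between lists, as descriptions only.

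Lines with equal coordinates were merged, and overlap meant at least 1 bp. Genes were the 19936 protein-coding RefSeq genes (GRCh38.p14) outside the left-out blocks, with starts for 15786. Shares have exact Clopper-Pearson 95% intervals, and differences of shares have normal ones. Depth was 34023091 (WT) and 25570686 (KO) fragments. The rule for naming genes took 10 whose region near a gene end ranked highest in 1 list, with none within 10 kb in the other, the 5 strongest distal regions, and the 5 largest differences in covered length, in each direction. KDM6A and up to 4 members of each of 17 gene lists were added, with further members named after their values were seen. The members and lists were chosen with earlier results of these data known. The scripts ran under Python 3.11.15 with scipy 1.17.1, pandas 2.3.3, numpy 2.4.6 and matplotlib 3.10.9, and 8 of 8 steps of the interval functions returned the seeded answers on simulated regions.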

Additional observations from a re-analysis of the deposited data

Results flagged for a closer look

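The left-out blocks held a signal in the KO library that the comparison did not use. Chromosome 2 at 15 to 20 Mb held 3348 regions of the library labelled H3K4me1 KO and 107 of that labelled WT. H3K27ac gave 75 regions in WT and 122 in KO there. Chromosome 11 at 109000000 to 112000000 bp held 1716 KO and 88 WT regions, with 63 and 58 for H3K27ac. Leaving the blocks in raised the gained share from 67.4% to 69.2%. What fills these blocks was not tested.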

How the results depend on the processing

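No paired analysis was possible because each group had 1 library. The 8 results were recomputed under those of 14 settings that bear on each, and 12 of 71 recomputed values fell within the interval of the value reported. The lost share of regions ran from 62.9% to 96.5% and the gained share from 52.3% to 76.1%, and all 3 differences between lost and kept regions changed sign under some setting.

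With −log10 q of at least 5 in both lists, 89.2% of WT regions were lost and 68.6% of KO regions gained, and 91.1% of WT-marked genes were lost and 2.49% of unmarked genes gained. The differences, lost minus kept, were −31.7 points for the distal share, 5.72 for WT H3K27ac and 9.98 for several summits, and −59.7 for gained minus kept on KO H3K27ac. With equal list lengths, 74.1% of WT regions were lost and 70.5% of KO regions gained, and the same 4 differences were −14.7, −3.00, −7.97 and −64.9. With the blocks of chromosomes 2 and 11 kept in, 69.2% of KO regions were gained, and gained minus kept on KO H3K27ac was −62.3. Without regions on input, 78.3% were lost and 69.6% gained, with differences of −11.04 (distal), −11.3 (several summits) and −60.5 (KO H3K27ac).

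When 50% of a region had to be covered, 86.4% were lost and 76.1% gained, and the differences were −32.5 (distal), 12.9 (WT H3K27ac), 20.0 (several summits) and −64.0 (KO H3K27ac). With a region of the other list within 1 kb counted as overlap, the values were 62.9% and 52.3%, and −11.9, 0.32, −2.84 and −51.4. Windows of 1 kb gave 74.0% of genes lost and 8.90% gained, and windows of 10 kb 42.0% and 22.6%. A distal limit of 50 kb gave −18.1. With the highest summit required to lie in H3K27ac, the differences were −3.37 in WT and −54.1 in KO, and the mean over deciles of rank gave 1.86 in WT.

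The remaining settings were chosen after seeing the data, and the dense bins by KO counts, which favours a higher lost share without them. Without dense bins of 1 Mb, 88.0% of WT regions were lost and 66.8% of KO regions gained, with 67.9% of genes lost and 8.06% gained. The differences were 0.63 (distal), −13.9 (WT H3K27ac), −27.4 (several summits) and −70.2 (KO H3K27ac). With −log10 q of at least 5 applied as well, the shares were 96.5%, 62.1%, 96.3% and 0.814%, and the differences −14.0, 4.49, −2.56 and −65.5. With either gene end in place of the start, 51.9% of genes were lost and 16.7% gained. The causes of these shifts were not tested. A weaker library lists fewer regions at a fixed q-value, so absence from the KO list sets no limit on the mark there.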
